A study of Rattus norvegicus with 5 samples.

Results

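The secretory granule and prohormone genes are 10 rat genes whose products build the dense-core granule, cut hormone precursors inside it, or are stored in it. They were followed over 1 normal liver and 4 hepatocellular carcinoma lines. The members were chosen by measured values of these same arrays: Ptprn was high in both high-metastatic lines and Cpe was high in L2. Probes were taken where the platform annotation gave one of the 10 symbols. Of the 33849 discovery probes, which name 12198 genes, 8 met this rule, 1 each for Ptprn, Ptprn2, Cpe, Pcsk2, Scg2, Scg5, Chga and Chgb. No probe was named Pcsk1 or Pam, so those members were not analysed here. Of the 8 genes with a probe, 6 were above background on at least 1 array, and the same number passed the filter on dim probes. Scg5 and Chgb were near background on every array.

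The low-metastatic class is C5F with C6, and the high-metastatic class is N1 with L2. All 4 lines come from liver tumours of male F344 rats, labelled 31 weeks of age, that had received N-nitrosomorpholine and diethylnitrosamine. The liver is from a male SD rat of 50 weeks, labelled as a control, so it differs from the lines in strain, age and growth in culture as well. RNA was labelled with Cy5 and read on single-colour CodeLink whole-genome arrays. Each line has 1 array, a class is replicated by its 2 lines, and the liver stands alone, so the number of arrays limits precision. Between 30.6% and 39.2% of discovery probes were above background per array. Hepatocyte markers checked the tissue: of 10, the liver had 8 above background, C5F 6, N1 2, and C6 and L2 1 each. Alb, the albumin gene, had a level of 11.5 in liver and was near background in all 4 lines.

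Endocrine cells and neurons keep peptide hormones in granules that are released on a signal. In the granule, prohormone convertases cut precursor proteins after pairs of basic residues, carboxypeptidase E trims the residues left behind, and an amidating enzyme finishes many peptides. Chromogranins and secretogranins help to pack the cargo. Hepatocytes, by contrast, are known for releasing plasma proteins continuously, without storing them in such granules.

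A signal below is a quantile-normalised spot intensity from which the scanner software had already subtracted background, and a level is its log2. Levels were floored at 1.34, and a level near background is a bound rather than a measured amount. The signal needed for a call differed between arrays: the lowest called above background was 7.87 in C5F and 14.6 in liver. A call on C5F alone therefore need not mean a higher level there. Levels of different genes come from different probes and were not compared with each other.

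The promoters of Ptprn and Cpe are shown because these members differed most between the lines. Both are RefSeq sequences of build GRCr8, from 250 bases before to 50 bases after a start that the RefSeq promoter table uses, read along the gene's own strand. That start is the outer end of the annotated locus for Cpe and Ptprn2. For Ptprn it lies 541 bases inside the locus and for Scg2 342 bases inside, so those windows fall within the annotated gene and distances below count from the table's start. The start used lies 86 bases inside the locus for Scg5 and 124556 bases inside for Pam, whose window is thus far from the outer end. Ptprn lies on chromosome 9 and its window is chr9:84204774-84205073 on the minus strand. Cpe lies on chromosome 16 and its window is chr16:29796457-29796756 on the plus strand. Capitals mark TGACG, the core of the cAMP response element, and GGGCGG, the GC box, on either strand.
Ptprn: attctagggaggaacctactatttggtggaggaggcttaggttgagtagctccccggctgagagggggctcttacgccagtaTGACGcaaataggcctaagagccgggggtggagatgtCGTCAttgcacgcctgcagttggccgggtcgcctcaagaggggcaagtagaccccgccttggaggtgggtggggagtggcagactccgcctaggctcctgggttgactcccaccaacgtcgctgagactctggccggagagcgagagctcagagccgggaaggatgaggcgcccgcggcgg
Cpe: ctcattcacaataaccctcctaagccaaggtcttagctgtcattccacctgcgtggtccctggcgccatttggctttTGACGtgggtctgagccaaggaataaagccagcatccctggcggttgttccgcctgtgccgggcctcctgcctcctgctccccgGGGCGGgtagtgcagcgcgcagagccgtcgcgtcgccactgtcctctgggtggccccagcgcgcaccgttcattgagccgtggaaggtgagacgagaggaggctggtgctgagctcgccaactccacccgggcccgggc
Ptprn had 2 matches to TGACG, starting 168 and 131 bases before the table's start, and none to GGGCGG. Cpe had 1 match to TGACG, starting 173 bases before, and 1 to GGGCGG, starting 89 bases before. Over all 33469 promoters of that length, 21.2% held TGACG and 33.1% held GGGCGG on either strand. A match describes letters and does not show that a factor binds.

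Letters of a different element were found in 2 other members. RE1 is the element bound by REST, a repressor known for silencing neuronal and neuroendocrine genes in other cells. Letters of it were searched as TTCAGCACC followed directly by GGACAGC, on both strands. Only this exact run was searched, with no gap or mismatch. Forms of RE1 with bases between the parts were not searched, so the counts below are of this run and give no frequency of RE1. Ptprn2 and Scg2 held this run, and their stretches of 30 bases are printed because the same 16 letters stand in both, in capitals.
Ptprn2, chr6:143582533-143582562, plus strand: cggaggcGCTGTCCGGTGCTGAAgctcggc
Scg2, chr9:88256913-88256942, minus strand: ccgaggaGCTGTCCGGTGCTGAAacggccc
The match begins 28 bases before the table's start in Ptprn2 and 69 bases before it in Scg2. Of 33469 promoters, 3 (0.00896%) held these letters. The third, of LOC102548847, overlaps the window of Ptprn2 on the other strand and holds the same site. Scg2 also held the full cAMP response element TGACGTCA, 123 bases before the table's start, which 1.83% of promoters held. TATAAA was found in 0 of the 8 member promoters, the window of Pam far inside its locus included, and in 14.2% of all. The promoters of Ptprn and Cpe held neither RE1 part. Chga and Pcsk1 had no entry in the promoter table, and the motifs were chosen after the signals were known.

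**Figure D1:**
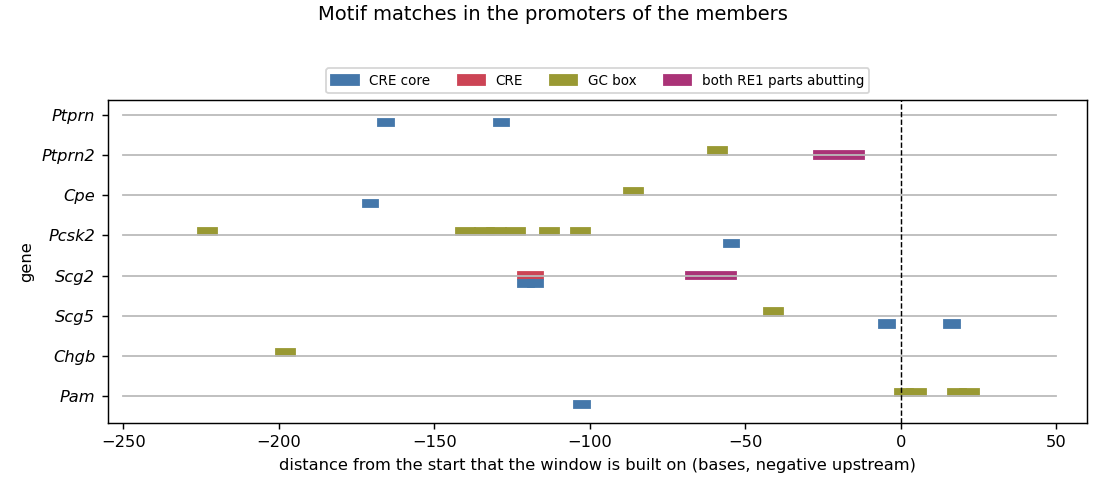
Matches to 4 motifs in the promoters of 8 members. The horizontal axis is the distance in bases from the start that the RefSeq table uses, drawn as a dashed line, and each bar is 1 match on either strand. The paired RE1 parts stand in Ptprn2 and Scg2, 28 and 69 bases before that start. For Pam that start lies 124556 bases inside the annotated locus.

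Ptprn encodes a transmembrane protein of the granule that resembles a tyrosine phosphatase but lacks its activity, and it is known as an autoantigen of type 1 diabetes. Its level was 5.21 and 5.82 in C5F and C6, and 8.80 and 8.82 in N1 and L2. Both high-metastatic lines stood above both low-metastatic lines. N1 and L2 lay close together, while C5F and C6 lay further apart. The fold between a high- and a low-metastatic line ran from 7.86 for N1 over C6 to 12.2 for L2 over C5F. The class difference was 3.29 ± 0.29 (log2 units, SE, n = 2 lines in each class). It is given without a test because Ptprn was chosen for it.

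In liver the Ptprn spot was marked irregular by the scanner software and was set to missing. Its raw intensity was 127 there, against 50.5 and 60.7 in C5F and C6, and 430 and 379 in N1 and L2. With marked spots kept, the level was 7.32 in liver, between the low-metastatic lines (5.32 and 5.87) and the high-metastatic lines (8.79 and 8.80). In that setting the liver, too, carried more Ptprn signal than C5F and C6, on a spot whose shape the software had faulted.

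Ptprn2 encodes phogrin, the closest relative of Ptprn in the granule membrane. Its level was 4.85 in liver, 5.08 in N1 and 4.89 in L2, and the spots of C5F and C6 were irregular. The 3 usable spots spanned 0.23 on the log2 scale, so the high-metastatic lines and the liver were near each other. No class difference could be fitted. With marked spots kept, C5F and C6 stood at 5.15 and 5.29, and the class difference was −0.24 ± 0.17.

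Cpe encodes carboxypeptidase E, which removes basic residues from the ends of peptide intermediates and also acts in sorting cargo to granules. Its level was 8.76 in L2 and 3.95 in C6, and the spot was near background in liver, C5F and N1. L2 stood apart from every other array, the other high-metastatic line included. The signal in L2 was 28.0-fold that in C6. Where the spot was near background, the dimmest signal that the array still called above background was used instead. On that basis the L2 signal was at least 29.5-fold that in liver, at least 54.9-fold that in C5F and at least 33.1-fold that in N1. These are folds between single arrays, with no replicate of L2 behind them.

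The class difference of Cpe, 2.28 ± 2.71, was smaller than its error. It was −1.14 without L2, where N1 is the lone high-metastatic line, and 5.69 without N1. Cpe was the 1 member among 4 measured in all 4 lines that was at least 4-fold above each other line in L2, as were 57 of 9352 probes (0.609%). Cpe was chosen for that difference, so nothing is read from the share.

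**Figure D2:**
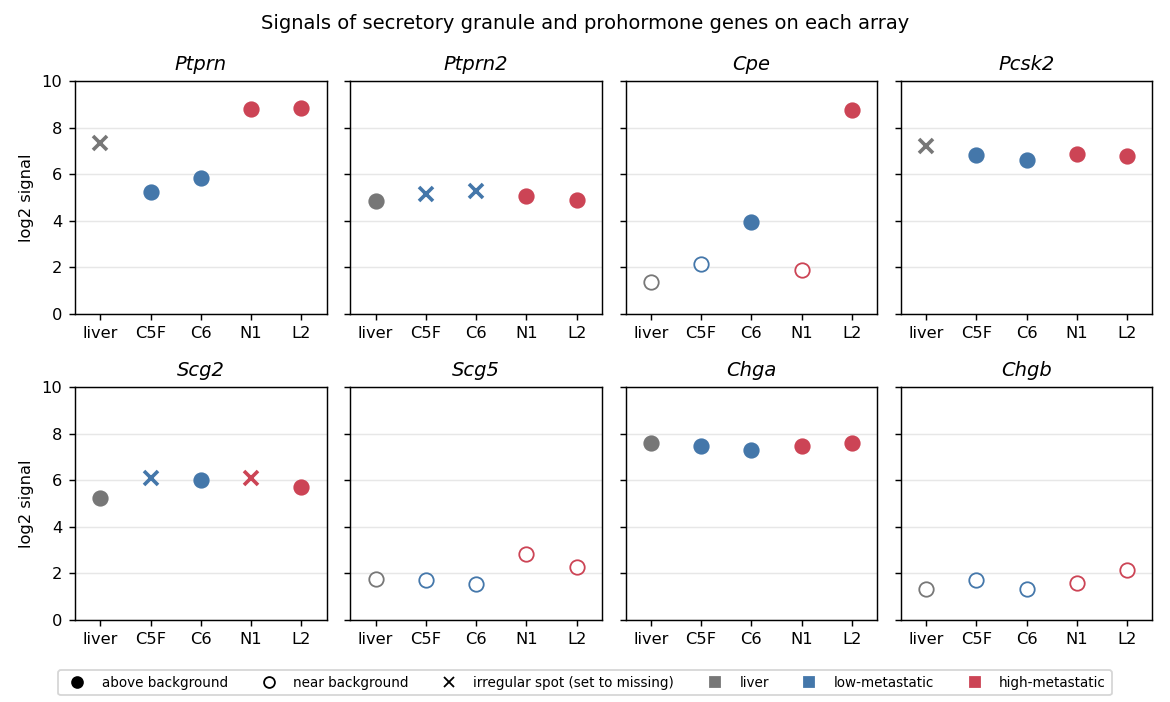
Level (log2 signal, vertical axis) of the 8 members with a probe on each of the 5 arrays. Filled circles are spots above background, open circles spots near background and crosses irregular spots drawn at their level with marked spots kept. Ptprn stands at 8.80 and 8.82 in N1 and L2, and Cpe at 8.76 in L2, while Chga lies between 7.31 and 7.60 on all arrays.

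Pcsk2 encodes prohormone convertase PC2, which cuts proglucagon, proinsulin and other precursors. Its level was 6.83 and 6.58 in C5F and C6, and 6.87 and 6.80 in N1 and L2, and the liver spot was irregular. The classes overlapped, and the 4 lines spanned 0.29 on the log2 scale. The class difference was 0.13 ± 0.20, with a 95% interval from −0.45 to 0.71. With marked spots kept, the level in liver was 7.19, above the 6.63 to 6.88 of the lines, and the lines differed from it by −0.39 ± 0.21 (limma adjusted p = 0.263).

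Scg5 encodes 7B2, the chaperone that PC2 needs to mature. Its probe was near background in liver, C5F, C6, N1 and L2, with raw intensities of 2.83, 4.39, 2.75, 6.19 and 4.67. The lowest signal called above background lay between 7.87 and 14.6 on these arrays, and the normalised signals of Scg5 reached at most 7.19, in N1. The Pcsk2 probe was thus called above background in all 4 lines and the Scg5 probe in none. These are calls of different probes, whose levels were not compared, so PC2 without its chaperone is not shown.

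Chga encodes chromogranin A, an acidic granule protein used as a marker of neuroendocrine cells. Its level was 7.59 in liver, 7.46 and 7.31 in C5F and C6, and 7.48 and 7.60 in N1 and L2. All 5 arrays were above background, and the lines spanned 0.29, a range that 8.38% of the 9352 probes measured in all 4 lines matched or undercut. Their median range was 0.85. The lines differed from liver by −0.13 ± 0.21 (SE, n = 4 lines against 1 liver), with a 95% interval from −0.74 to 0.48 (limma adjusted p = 0.675). The sign turned to 0.0043 when arrays were scaled to the median of their probes above background. The class difference was 0.16 ± 0.19, with a 95% interval from −0.39 to 0.70, and became −0.0041 in that setting.

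Chgb encodes chromogranin B, the relative of Chga in the granule matrix. It was near background on all arrays, with raw intensities of −3.18 in liver, 4.35 and 0.129 in C5F and C6, and 2.67 and 4.29 in N1 and L2. The levels ran from the floor of 1.34 to 2.14, in L2. Chgb showed no measured level on any array, unlike Chga.

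Scg2 encodes secretogranin II, the precursor of secretoneurin. Its level was 5.25 in liver, 5.99 in C6 and 5.73 in L2, and the spots of C5F and N1 were irregular. Both usable lines stood above liver, by 0.61 on average. This was not tested, since the model with a mean for each class left Scg2 no residual degree of freedom. With marked spots kept, all 4 lines (5.84 to 6.10) stood above liver (5.20), and the difference of 0.82 ± 0.22 missed the threshold (limma adjusted p = 0.0829).

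Over the members as a group, the comparison of the lines with liver asks whether the tumour lines differ from the tissue in granule genes. Of 8 members, 2 could be tested, Cpe and Chga, and 0 passed limma's adjusted p threshold of 0.05, with 0 also at an unadjusted p under 0.05. Over all 11949 tested probes, 9.01% passed as higher and 9.38% as lower in the lines. At an unadjusted p under 0.05 these shares were 21.4% higher and 17.2% lower. With marked spots kept, 6 members could be tested, 0 passed, and 1, Scg2, had an unadjusted p under 0.05. In that setting 19.9% of all tested probes passed and 39.7% had an unadjusted p under 0.05. In whole tissue, fewer cells of a type and less RNA per cell cannot be told apart. The liver holds cells that the lines lack: the summed signal of the 4 endothelial markers usable on all arrays was 397 in liver and 10.1 to 23.1 in the lines, and that of the 5 macrophage and leukocyte markers was 1365 against 34.8 to 62.9. Their part in the liver signals of the members was not tested.

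Among 4 members with a usable spot in every line, 2 had both high-metastatic lines above both low-metastatic lines, Ptprn and Chga. The gap for Chga was between levels of 7.46 and 7.48, and this order was lost with either of 2 other scalings of the arrays and with marked spots kept. Over 9352 probes the share was 17.5%, and 19.2% had both low-metastatic lines above, which 0 members had. Because this contrast served to choose Ptprn, nothing is read from the count.

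**Figure D3:**
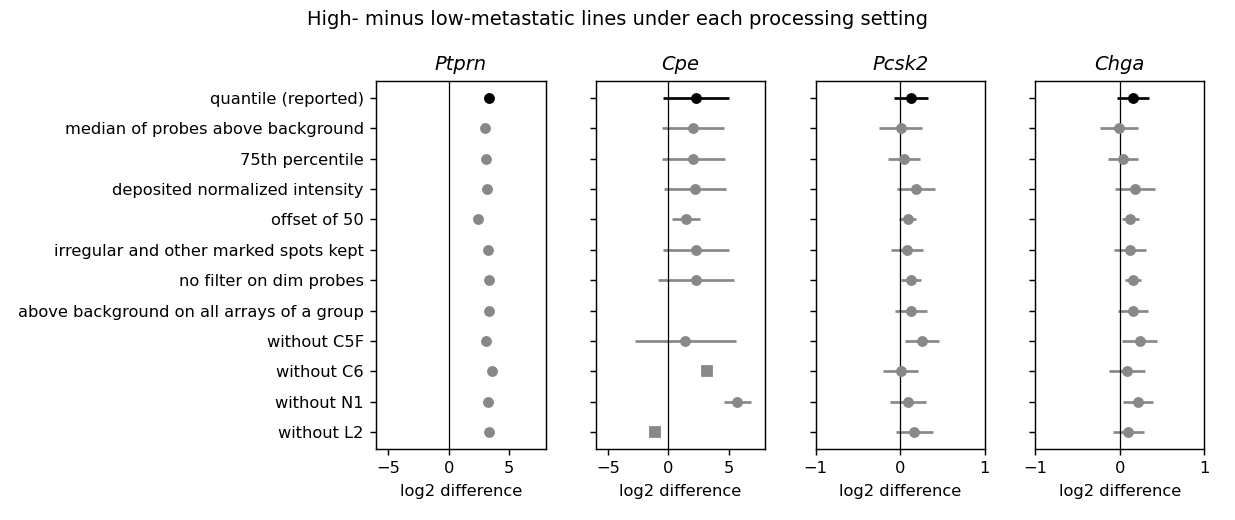
Difference between the high- and the low-metastatic lines (log2 scale, horizontal axis) for 4 members under the reported setting (black) and each alternative (grey). Bars are standard errors and squares are plain differences with no error. Ptprn ranges from 2.37 to 3.55 over the 11 alternatives, whereas Cpe turns to −1.14 without L2. Ptprn was chosen for this difference, so nothing is read from its keeping its direction. The horizontal scale of Pcsk2 and Chga is narrower than that of Ptprn and Cpe.

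Other genes of the pathway were read from lists of textbook genes. The first holds convertases and carboxypeptidases outside the members. Of 13 such genes with a probe, 12 were above background on at least 1 array. Against liver 7 were tested, and 0 rose and 0 fell by limma's adjusted p, while 4 were lower at an unadjusted p under 0.05, beside 17.2% of all probes. Their median difference was −0.98, where the median of all tested probes was 0.15. Furin, the convertase of the constitutive pathway, stood at 9.44 in liver, 8.01 in C5F, 8.26 in C6 and 8.69 in L2, with an irregular spot in N1. The related convertase Pcsk6 stood at 7.16 in liver, 4.18 in C5F, 4.85 in N1 and 4.12 in L2, and was near background in C6. Cpn1, the subunit of a plasma carboxypeptidase made in liver, stood at 8.55 in liver, 6.56 in C5F, 5.34 in C6 and 6.24 in N1, and was near background in L2, the line with the highest Cpe. Cpd, a carboxypeptidase of the trans-Golgi network, was above background in N1 alone, at 3.96.

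Granule cargo and biogenesis genes were present in part. Of 15 with a probe, 8 were above background on some array, 6 were near background on every usable array, and Atp6ap1 had no usable spot. Near background throughout was Scg3, secretogranin III, which sat at the floor of 1.34 on all arrays. Of 6 genes tested against liver with limma, 0 rose and 0 fell (median 0.60), and 1, Cyb561, was higher at an unadjusted p under 0.05, beside 21.4% of all probes. Vgf, a granin-like precursor, stood at 4.08 in liver, 5.43 in C6, 4.74 in N1 and 6.95 in L2, with an irregular spot in C5F. Ica1, an islet autoantigen, was near background in liver and stood at 6.28 in C5F and 6.90 in L2, with no usable spot in C6 or N1. Cyb561, an electron carrier of the granule membrane, stood at 5.49 in liver and between 6.17 and 6.76 in the lines. Atp6ap2, an accessory protein of the proton pump, stood at 8.66 in C5F and 8.72 in C6, above 7.89 in N1 and 7.33 in L2.

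Regulated exocytosis genes numbered 12 in the limma test against liver, of which 0 rose and 0 fell (median 0.47), and 2 were higher at an unadjusted p under 0.05, beside 21.4% of all probes. Of 31 with a probe, 19 were above background on some array. Snap25, the neuronal fusion protein, was near background on every array. Sytl1 and Sytl2, adaptors that link Rab27 to membranes, were above background in L2 alone, at 4.14 and 5.92, although Sytl2 had usable spots only in C5F and L2. Rab3b, a small GTPase of secretory vesicles, stood at 7.01 in N1 and 4.38 in C5F, and was near background elsewhere. Syt5, a synaptotagmin, was above background in C5F alone, at 3.87. Rab27a, which docks granules, was above background in liver (4.33) and C5F (3.32). Myrip, which ties Rab27a to myosin, stood at 3.91 in C5F, 4.19 in C6 and 4.66 in L2 and was near background in liver and N1. Of 8 genes measured in all 4 lines, both low-metastatic lines stood above both high-metastatic lines for 3 and the reverse held for 0, where the shares over all probes were 19.2% and 17.5%. Named after their values were seen, these were Stxbp2, Syt4 and Cplx1. The gap was between levels of 4.40 and 4.36 for Syt4, 4.39 and 4.35 for Cplx1, and 4.89 and 4.54 for Stxbp2. Nothing is read from so small a count.

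Among 38 hormone and neuropeptide precursors with a probe, 21 were above background on at least 1 array. Of 11 tested with limma, 0 rose and 1 fell (median 0.48), while at an unadjusted p under 0.05 1 was higher and 2 were lower (21.4% and 17.2% of all probes). The one that fell was Calcb, a calcitonin gene-related peptide, named after its value was seen, with −1.32 ± 0.22 (limma adjusted p = 0.0405). Penk, the precursor of enkephalins, stood at 6.68 in L2 and was near background on the other 4 arrays. Sct, the secretin gene, stood at 5.09 in C5F and was near background elsewhere. Nppb, a natriuretic peptide gene, stood at 7.04 in C6 and 4.12 in L2 and was near background in liver, C5F and N1. Adm, the adrenomedullin gene, stood at 4.87 in C5F and 4.39 in N1 and was near background on the other 3 arrays. Kiss1, the kisspeptin gene, stood at 5.74, 5.51, 6.45 and 5.06 in C5F, C6, N1 and L2 and was near background in liver. Of 11 precursors measured in all 4 lines, 2 had both high-metastatic lines above, namely Calcb and the insulin gene Ins2, the latter at 6.13 and 6.16 in C5F and C6, and at 6.43 and 6.25 in N1 and L2. That count is near the 17.5% of all probes, both genes were named after their values were seen, and the class differences were 0.26 and 0.20. Thus Penk shared its bright array with Cpe, while Sct and Nppb peaked in low-metastatic lines.

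**Figure D4:**
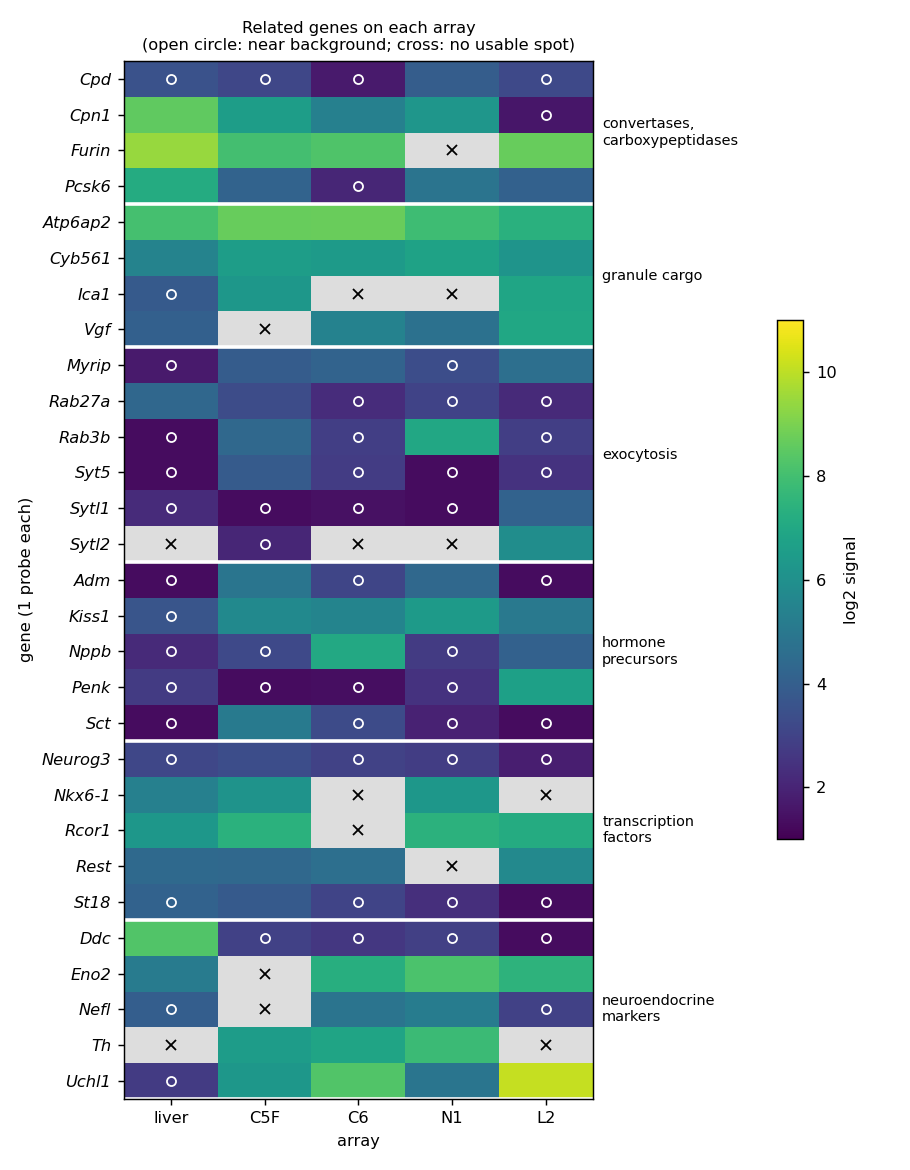
Level (log2 signal, colour) of the genes named by rule from 6 lists, with 1 row per gene and 1 column per array. Open circles are spots near background and crosses mark spots that were not usable. In L2, Uchl1 reaches 10.1 and Penk 6.68, and Rab3b reaches 7.01 in N1.

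Of neuroendocrine transcription factors and Rest, 7 of 11 with a probe were above background on some array, and 0 rose and 0 fell of 2 tested with limma, with 1, Rcor1, higher at an unadjusted p under 0.05 (21.4% of all probes). Neurod1 and Pax6, regulators of endocrine cells, were near background on all arrays. Rest, the repressor named above, stood at 4.42 in liver, 4.36 in C5F, 4.66 in C6 and 5.72 in L2, with an irregular spot in N1. Its difference from liver was 0.70 ± 0.29 (limma adjusted p = 0.218). L2 had the highest usable level of Rest, with N1 not measured, and a link between Rest and Cpe was not tested. Rcor1, a corepressor partner of REST, stood at 6.30 in liver and between 7.15 and 7.44 in the 3 lines with a usable spot. Nkx6-1, a beta-cell factor, stood at 5.36 in liver, 6.14 in C5F and 6.30 in N1, with no usable spot in C6 or L2. St18 and Neurog3 were called above background in C5F alone, at 3.83 and 3.36. Their liver spots, called near background, stood at 4.13 and 3.13, so a higher level in C5F is not shown.

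Neuroendocrine and neuronal markers gave 0 that rose and 1 that fell of 6 tested with limma (median 0.64), and 2 were higher at an unadjusted p under 0.05 (21.4% of all probes). The gene that fell was Ddc, aromatic amino acid decarboxylase, at 8.28 in liver and near background in all lines (limma adjusted p = 0.0258). Of 15 markers with a probe, 9 were above background on some array and 6 on none. Syp, Ncam1 and Slc18a2 were among the latter. Named after their values were seen were Slc18a1, a vesicular monoamine transporter, and Gap43, a growth cone protein, both called near background in liver. Slc18a1 was called above background in C5F (4.11), C6 (4.13) and L2, with no usable spot in N1. Its liver spot stood at 3.74, near its level in L2. The lines differed from liver by 0.21 ± 0.24 (limma adjusted p = 0.572), so a higher level of Slc18a1 in the lines is not shown. Gap43 lay between 4.61 and 4.82 in the lines, and its difference from liver of 0.79 ± 0.21 missed the threshold (limma adjusted p = 0.085). Uchl1, a ubiquitin hydrolase of neurons and endocrine cells, stood at 10.1 in L2, 8.27 in C6, 6.29 in C5F and 4.88 in N1 and was near background in liver. Eno2, the neuronal enolase, stood at 5.15 in liver, 7.27 in C6, 8.17 in N1 and 7.45 in L2, and the difference of 2.39 ± 0.45 missed the threshold (limma adjusted p = 0.0775). Th, tyrosine hydroxylase, stood at 6.51 in C5F, 6.83 in C6 and 7.80 in N1, with no usable spot in liver or L2. Nefl, a neurofilament gene, was above background in C6 (4.85) and N1 (5.20). Over the 9 genes of this list usable on all arrays, the summed signal was 357 in liver, 140 and 371 in C5F and C6, and 96.5 and 1186 in N1 and L2. Single genes set these sums: Uchl1 gave 1119 of the sum in L2 and 309 of that in C6, and Ddc gave 311 of that in liver. Without both genes the other 7 summed to 39.5 in liver and 53.7 to 64.5 in the lines. Of these, Syp, Slc18a2, Stmn2, Elavl4 and Nefm were near background on every array, so part of that sum rests on bounds. The part of these markers in the Cpe signal was not tested. Without C5F, or without C6, limma called 0 probes of all tested against liver, Calcb and Ddc included, with 2999 and 2975 at an unadjusted p under 0.05.

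The genes whose pattern lay nearest to Ptprn were sought over the 4 lines, since its liver spot was missing. The measure was the mean absolute difference between levels centred on each probe's own mean, among 5743 named probes. Zfp775, a zinc finger gene, was nearest, at 0.052, with levels of 3.19 in C5F, near background in C6, 6.94 in N1 and 6.85 in L2. Lgals3bp, a secreted galectin-binding glycoprotein, followed at 0.17, then Cym, the gene of chymosin, at 0.26, the homeobox gene Hoxd8 at 0.28 and Kctd1 at 0.31. In liver, Lgals3bp (8.83) and Zfp775 (6.34) were above background, and Cym, Hoxd8 and Kctd1 were near background. For Cpe, over all 5 arrays, the nearest were Stra6, a receptor for retinol uptake, at 0.60, the lipid flippase gene Atp10a at 0.78, the transporter Abca4 at 0.88, the cytokine Il10 at 0.92 and Zfp574 at 0.99. Stra6, Atp10a, Il10 and Zfp574 were above background in L2 alone, and Abca4 also in C6 and N1. Since Cpe and these genes were near background on most or some arrays, where levels are bounds, the distances and their order are approximate. The same holds for the genes near Ptprn that were near background in C5F or C6.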

How the data were processed

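Total RNA from 5 samples was hybridised to Rat Whole Genome CodeLink arrays. Software named in the file headers, CodeLink Expression Analysis, produced the authors' values. Each deposited file holds the raw intensity of every spot, after background subtraction, and the same intensity divided by the array median. The series' value matrix repeats the divided intensity (largest difference 0).

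The raw intensity was used here. Control spots were dropped. Spots marked as irregular, as contaminated or as masked were left out, 7.72% to 9.62% of discovery probes per array and 6 of the 40 member spots. Arrays were quantile normalised with limma 3.58.1 in R 4.3.3. A floor of 2.53, the median signal of spots near background, preceded the log2. A probe was kept if it was above background in the liver or on at least 2 line arrays (16377 probes). Symbols came from the platform annotation, updated through Entrez numbers in RefSeq (GRCr8), and the brightest probe stood for a gene of a list.

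One limma model with the liver and both classes was fitted to all probes, with two-sided tests, Benjamini-Hochberg adjustment and a threshold of 0.05. Residual degrees of freedom were at most 2, a single liver takes its spread from the lines, and a probe without any was left untested. Labels do not say whether lines were cultured more than once. The fit was tested on simulated data. Members, lists and motifs were chosen with earlier results of these data known. The rule named all members, up to 3 genes per list with the largest difference in each comparison, and the 5 genes nearest in pattern to Ptprn and to Cpe. Markers of liver cell types and the dimmest neuronal genes are given as counts and sums. The nearest genes of Ptprn were sought over 4 arrays, not the intended 5. Alternatives were other scalings, an offset of 50, marked spots kept, other filters and each line left out. Further software was the R package data.table (version 1.17.8), pandas 2.3.3 and matplotlib 3.10.9.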

Additional observations from a re-analysis of the deposited data

How the results depend on the processing

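No paired analysis was possible because each array is a different line or the lone liver, and the labels give no pairing. The count of members called against liver by limma was 0 under all 11 alternatives, in which 1 to 6 members could be tested. At an unadjusted p under 0.05 it was 1 (Scg2) with marked spots kept, beside 39.7% of all tested probes. It was 0 under the other alternatives that kept every line. Without N1, which leaves L2 as the lone high-metastatic line, the difference of Cpe from liver was 4.55, against 2.84 as reported. The count of members with both high-metastatic lines above both low-metastatic lines was 2 of 4 as reported. It was 1 of 4 with arrays scaled to the median of their probes above background and 1 of 4 with the 75th percentile. With marked spots kept it was 1 of 6. It was 3 of 4 on the deposited normalized intensity and 3 of 6 with no filter. It was 3 of 4 without C5F, 2 of 3 without C6, 3 of 4 without N1 and 3 of 3 without L2. With a line left out, 1 class holds a single line and the order is easier to meet, so those counts are not comparable with the reported one. The share over all probes was not counted under these alternatives. The difference of Chga from liver turned from −0.13 to 0.0043 with arrays scaled to the median of their probes above background. The cause was not tested. Of the values of single members under alternatives, 76 stayed within the spread between lines or on their side of the threshold and 5 moved further. The spread of Cpe between lines was itself wide. Its class differences of −1.14 without L2 and 5.69 without N1 therefore counted as staying, although the first changed sign. Without each line in turn, the class difference of Ptprn ran from 3.04 to 3.55 and that of Cpe from −1.14 to 5.69. An offset of 50 gave 2.37 for Ptprn. A filter asking for all arrays of a group above background removed Cpe. Calls over all probes, 1077 higher and 1121 lower than in liver as reported, fell to 0 without C5F and without C6. They were 114 and 476 without N1, 132 and 485 without L2, 605 and 1321 with the offset, 623 and 1725 with no filter, 718 and 991 on the deposited normalized intensity, and 1869 and 1493 with marked spots kept. Values near background are bounds.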
